A study of Mus musculus with 6 samples.

Results

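The genes described here are those of Wnt signalling: the Wnt ligands with Porcn, their Frizzled and Lrp receptors, the secreted Dkk and Sfrp antagonists, the Dishevelled proteins, beta-catenin with its destruction complex, and the TCF and LEF factors. They were chosen by gene symbol alone. A probe set belonged to the group when the array annotation gave it a single symbol that starts with Wnt, Fzd, Dkk, Sfrp or Dvl and a digit, or that is Lrp5, Lrp6, Ctnnb1, Apc, Gsk3a, Gsk3b, Axin1, Axin2, Tcf7, Tcf7l1, Tcf7l2, Lef1 or Porcn. Of the 45101 probe sets on the array, 110 met this rule, and they represent 53 of the 18193 genes that the annotation names singly. Tcf7, although listed, was not represented by any such probe set. The rule also took in Fzd10os, an antisense gene beside Fzd10.

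Expression was measured in mouse embryonic stem cells of the Dicer-deficient line 27H10, which the sample titles shorten to 27H. Dicer cuts microRNA precursors into their mature form, and it was missing in both groups, so every array comes from cells that cannot process microRNAs of their own. In the control group (n = 3), the cells had been transfected with an siRNA against Renilla luciferase, an enzyme that mouse cells do not make. In the other group (n = 3), they had been transfected with Dharmacon mimics of the microRNAs of the mmu-miR-290 cluster, the most abundant microRNAs of embryonic stem cells that have Dicer. Both groups were undifferentiated and were analysed 24 h after transfection. The comparison asks which transcripts differ once these microRNAs are supplied. The samples come from a single cell line, and cells with Dicer were not analysed here. Nothing in the labels says that replicates were separate cultures. The p-values given therefore set the difference between the groups against a spread that may be technical.

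Wnt proteins are lipid-modified in the endoplasmic reticulum by Porcupine and then bind Frizzled receptors together with the co-receptors Lrp5 or Lrp6 on the receiving cell. Binding recruits Dishevelled and stops the destruction complex of Axin, Apc and Gsk3 from marking beta-catenin for degradation, so that beta-catenin enters the nucleus and acts with TCF and LEF factors. In mouse embryonic stem cells this pathway is known to favour self-renewal, largely by relieving repression by Tcf7l1, and inhibition of Gsk3 is a standard part of defined culture media for these cells.

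The microRNAs are shown first because they are what differed between the groups by design. Which of the cluster's microRNAs were supplied as mimics is not given in the sources used here. The RefSeq table used here holds 13 mature microRNAs of this cluster, and mmu-miR-292a-3p is named only. The 13 lie on chromosome 7 of GRCm38.p6, between 3218639 and 3220837 on the plus strand. A microRNA recognises its targets mainly through its seed, bases 2 to 8, which is in capitals below in the 5′ to 3′ sequence. The first 3 share the seed AAGUGCU, and the following pair shares its core AAGUGC. The last 3 come from the 5′ arms and share a different seed, CUCAAAC.
mmu-miR-291a-3p: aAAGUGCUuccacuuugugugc
mmu-miR-294-3p: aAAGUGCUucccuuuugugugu
mmu-miR-295-3p: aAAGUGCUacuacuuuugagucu
mmu-miR-290a-3p: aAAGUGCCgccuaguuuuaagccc
mmu-miR-291b-3p: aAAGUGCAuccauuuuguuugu
mmu-miR-293-3p: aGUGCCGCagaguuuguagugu
mmu-miR-290a-5p: aCUCAAACuaugggggcacuuu
mmu-miR-292a-5p: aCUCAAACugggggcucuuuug
mmu-miR-293-5p: aCUCAAACugugugacauuuug
Matches to these seeds in the transcripts described next were not analysed here.

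The arrays resembled each other closely. Their median intensity, on a linear scale without a fixed unit, was 41.7 to 44.9, and the correlation of log2 values was 0.963 to 0.969 for arrays of the same group and 0.959 to 0.964 for arrays of different groups. All 8 embryonic stem cell markers (Pou5f1, Nanog, Sox2, Zfp42, Esrrb, Utf1, Dppa5a and Tdgf1) were above the filter on low values, which was a mean log2 intensity of 4. Their summed intensity was 102989 to 112056 on the control arrays and 110270 to 116080 on the mimic arrays. Of the fibroblast markers 2 of 6 were above the filter (Col1a1, Col1a2, Col3a1 and Postn were not), with a sum of 289 to 318 against 236 to 296. The endoderm markers (5 of 6 above the filter) summed to 134 to 207 against 197 to 218, the mesoderm markers (5 of 6) to 390 to 610 against 388 to 424, and the neural markers (5 of 6) to 1600.1 to 1696 against 1672 to 1961. Of the neural markers, Tubb3 rose and Sox1 fell in limma with the constant prior. With the robust prior described below, Tubb3 was the only neural marker called by its brightest probe set. That prior also called Esrrb and Utf1 of the 8 stem cell markers higher, where 6.2% of all genes were. The ranges of the groups overlapped in all 5 lists, and what the cells behind them add to the Wnt values was not tested. In bulk samples, fewer cells of a type and less RNA per cell cannot be told apart.

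Among the Wnt pathway genes, the ligand Wnt9a and the transcription factor Tcf7l2 fell in the cells given the mimics, by 3.11-fold and 1.54-fold. No gene of the group rose by the same test. The test was limma with a constant prior variance on log2 intensities, fitted over all 29167 probe sets above the filter, with a Benjamini-Hochberg adjusted p under 0.05 as the threshold. It covered 75 of the 110 Wnt probe sets and 43 of the 53 genes. Of the 75 probe sets 2 were called lower, or 2.67%, where 0.946% of all tested probe sets were lower. None was called higher (0 of 75), where 0.343% of all tested probe sets were. At an unadjusted p under 0.05 in limma, 11 Wnt probe sets were lower (14.7%, against 11.6% of all) and 4 were higher (5.33%, against 8.49%).

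The number of calls depended on how limma estimates the spread of each probe set. In an alternative planned with the test, the prior variance followed the signal level and was estimated robustly, which is called the robust prior here. It called 10 Wnt probe sets lower and 2 higher, against 6.56% lower and 4.73% higher among all tested probe sets. The 10 make up 13.3% of the tested Wnt probe sets and the 2 make up 2.67%. After centring each array on the median of its tested probe sets, this prior called 1423 lower and 1762 higher in all, with 9 and 3 of the Wnt probe sets. After centring on all probe sets it called 1979 and 805, with 9 and 1 of the Wnt probe sets, whereas without centring it called 1914 and 1379. Of the 10, 3 belong to Fzd2, so they are not separate genes. Counting each gene by its brightest probe set, 7 of 43 genes were lower (16.3%) and 1 was higher (2.33%), where 9.43% and 6.2% of all 13815 genes were. By the first test the gene counts were 2 lower and 0 higher, against 1.38% and 0.456% of all genes.

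Without any test, the control and mimic arrays did not overlap for 13 Wnt probe sets that were lower with the mimics (17.3%) and for 6 that were higher (8.0%). Among all tested probe sets these shares were 15.5% and 13.8%. The median log2 fold change (mimics minus control) of the 75 Wnt probe sets was -0.06, and that of all tested probe sets was -0.01. By gene, 21 of the 43 had a negative value and 22 a positive one, with a median of 0.01, and the median over all genes was -0.01. These medians are too near 0 to carry a direction, since other scalings of the arrays moved that of the Wnt genes between -0.02 and 0.06.

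Among the ligands Wnt9a fell. Wnt9a, a ligand studied mostly in joints, cartilage and blood stem cells, was read at 224.0, 295.1 and 242.8 on the control arrays and at 91.5, 72.4 and 80.6 on the mimic arrays. Every mimic array was below every control array. Its mean was 254 ± 36.8 (SD, n = 3) in the control group and 81.5 ± 9.56 (SD, n = 3) with the mimics, a log2 fold change of -1.64 ± 0.15 (SE) with a 95% interval of -2.01 to -1.26. It passed in limma with an adjusted p of 0.0292, and with the robust prior at 0.000238. A second Wnt9a probe set lay below the filter and gave no test.

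The call for Wnt9a was lost when no filter on low values was set (limma adjusted p = 0.115) and whenever any of the 6 arrays was left out (0.116 to 0.135), although the log2 fold change then stayed between -1.72 and -1.52. With the robust prior the Wnt9a call was kept in all 6 fits without an array, with limma adjusted p-values of 0.000879 to 0.00205. Wnt3a, which lies beside Wnt9a on chromosome 11 of GRCm38.p6, had a log2 fold change of 0.25 ± 0.91 (SE), and its adjusted p in limma was 0.905. Its values ran from 7.47 to 65.1 and the groups overlapped.

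**Figure D1:**
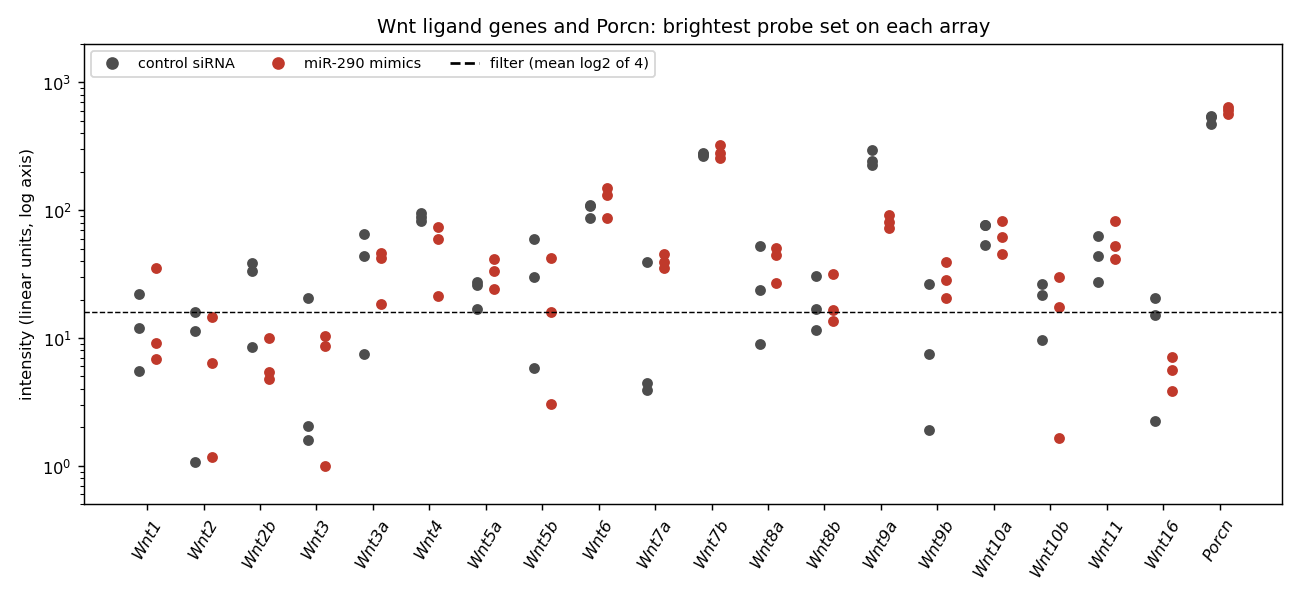
Intensity of the brightest probe set of each Wnt ligand gene and of Porcn on each array (log axis), grey for control siRNA and red for mimics, with the filter as a dashed line. Wnt9a is the ligand whose 3 mimic arrays (72.4 to 91.5) sit clearly below its 3 control arrays (224.0 to 295.1), while 7 ligands have a mean under the filter.

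Of the 20 genes in the ligand group, which counts Porcn, 13 could be tested. Wnt1, Wnt2, Wnt2b, Wnt3, Wnt9b, Wnt10b and Wnt16 were below the filter with all their probe sets, and no array read any of them above 39.6. Apart from Wnt9a no gene of the group was called in either direction by limma, with either prior, and the median of the 13 log2 fold changes was 0.22 (4 negative and 9 positive).

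Porcn, the acyltransferase that makes Wnt proteins competent for secretion, was read at 474.9, 536.2 and 541.8 in the control group and at 561.4, 607.0 and 644.1 with the mimics. The groups did not overlap, but the log2 fold change of 0.22 ± 0.096 (SE) missed the threshold (limma adjusted p = 0.283). Wnt7b, a ligand of lung and kidney development, was read at 276.2, 264.3 and 282.4 against 326.1, 255.7 and 280.4. Its groups overlapped, with a log2 fold change of 0.06 and a 95% interval of -0.22 to 0.34.

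Wnt6 gave a log2 fold change of 0.24, with values of 87.1 to 110.6 in the control group and 87.0 to 148.6 with the mimics. Wnt4, a ligand of kidney and gonad development, was read at 81.8, 95.2 and 88.7 against 59.4, 21.3 and 73.4. Its mimic arrays were all lower but far apart, and its log2 fold change of -0.96 ± 0.49 (SE) had a limma adjusted p of 0.346. Wnt4 and Wnt7a were picked out after their values were seen.

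Wnt7a had the largest log2 fold change of the ligands, 2.17, yet it was not called (limma adjusted p = 0.288). It was read at 4.46, 39.6 and 3.93 in the control group and at 39.1, 35.2 and 45.5 with the mimics. A single control array was as bright as the mimic arrays, and all values lay near the floor of the array, where a fold change is uncertain.

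Among the receptors no gene was called by limma with the constant prior, where 1.38% of all genes were lower. The robust prior called 4 of 12 lower (Fzd1, Fzd2, Fzd6 and Lrp6), where 9.43% of all genes were, and none was called higher by its brightest probe set. All 12 receptor and co-receptor genes were tested, 9 had a negative log2 fold change and 3 a positive one, and the median was -0.17. Of all 13815 genes 7188 were negative, with a median of -0.01. After centring on the tested probe sets 8 were negative and 4 positive, with a median of -0.12. None of the 4 passed by its brightest probe set with the constant prior and the filter of 4.

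Fzd6, a Frizzled receptor known for its part in hair patterning and planar cell polarity, was read at 358.3, 348.6 and 315.2 in the control group and at 219.3, 171.6 and 198.9 with the mimics. The groups were far apart relative to their spread, with means of 341 ± 22.7 and 197 ± 23.9 (SD, n = 3). This corresponds to a log2 fold change of -0.80 ± 0.12 (SE). Its adjusted p in limma was 0.0557 with the constant prior and 0.00338 with the robust prior, and the latter call was kept in each of 6 fits without an array. Its other probe sets were below the filter.

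Fzd2, a receptor linked to both the beta-catenin branch and Wnt5a signalling, had 3 tested probe sets that all pointed down. The brightest was read at 349.9, 334.5 and 332.8 in the control group and at 185.9, 255.7 and 180.2 with the mimics. The control arrays were almost level, the second mimic array was the highest of its group, and the groups did not overlap. Its log2 fold change was -0.73 ± 0.15 (SE), with limma adjusted p-values of 0.0876 (constant prior) and 0.00948 (robust prior). The other Fzd2 probe sets gave -0.93 and -0.86, with robust adjusted p-values of 0.00715 and 0.0263. When the tested probe sets of a gene were averaged, Fzd2 was called in limma with the constant prior too (-0.84, adjusted p = 0.0184).

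Fzd1, a close relative of Fzd2 and Fzd7, was read at 94.2, 75.1 and 75.7 against 30.0, 32.1 and 47.3. Again no mimic array reached the control arrays, and the log2 fold change was -1.19 ± 0.21 (SE). It was past the threshold with the robust prior (limma adjusted p = 0.0271; 0.0692 with the constant prior), but only in 1 of 6 fits that left out an array, the fit without the third mimic array. Without one of the other arrays its robust adjusted p was 0.0546 to 0.109. A dimmer Fzd1 probe set overlapped between the groups, with a log2 fold change of -0.30, and the mean of both was called with the constant prior (-0.74, limma adjusted p = 0.0275).

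Lrp6, the co-receptor that recruits Axin to the membrane, was read at 1387, 1220 and 1524 in the control group and at 1137, 978 and 1114 with the mimics. The groups did not overlap, and the log2 fold change was small at -0.35 ± 0.12 (SE). Its limma adjusted p was 0.191 with the constant prior and 0.0312 with the robust prior, and the latter call was kept in 1 of 6 fits that left out an array, the fit without the second control array. Without one of the other arrays the robust adjusted p was 0.0538 to 0.126. A second Lrp6 probe set gave 0.04, so the probe sets of this gene differ.

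**Figure D2:**
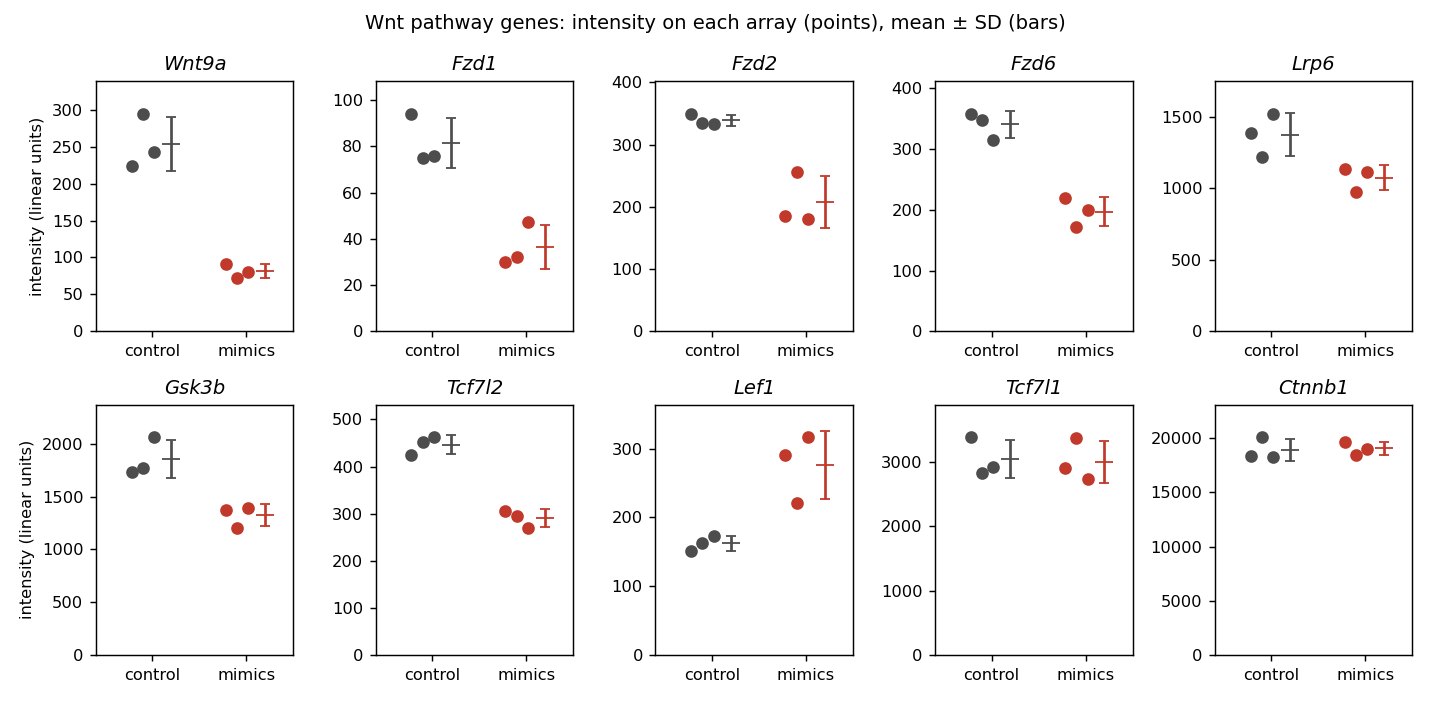
Linear intensity of 10 Wnt pathway genes on each array (points) with the group mean and SD (bars), control siRNA in grey and mimics in red, each panel with its own axis from 0. Wnt9a, Fzd1, Fzd2, Fzd6, Lrp6, Gsk3b and Tcf7l2 have every mimic array below the control arrays and Lef1 has every mimic array above them, while Tcf7l1 and Ctnnb1 overlap.

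None of the remaining receptors was called by its brightest probe set. Fzd7, the Frizzled receptor most often studied in embryonic stem cells, was read at 1642, 1469 and 1610.1 against 1551, 1301 and 1392. These groups overlapped, and the log2 fold change was -0.16 with a 95% interval of -0.41 to 0.10. Fzd3, a receptor of axon guidance, gave 0.05 with an interval of -0.61 to 0.70, which is too wide to place it.

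Fzd5, a receptor needed in the yolk sac and the eye, had a positive value by its brightest probe set, as did Lrp5 and Fzd3. Its brightest probe set was read at 1872, 1919 and 2012 in the control group and at 2219, 2353 and 1994 with the mimics. The third mimic array lay within the control range, and the log2 fold change of 0.18 ± 0.091 (SE) was not called (limma adjusted p = 0.358). A second Fzd5 probe set did not overlap between groups, at 453.8, 535.4 and 469.2 against 582.3, 667.0 and 716.4. It gave 0.43 ± 0.12 (SE), with a limma adjusted p of 0.137 (constant prior) and 0.0243 (robust prior), and the latter was kept in 2 of 6 fits that left out an array.

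Lrp5, the partner of Lrp6, was dim (9.26 to 37.7 over the 6 arrays) and its groups overlapped, with a limma adjusted p of 0.446. Fzd4, Fzd8, Fzd9 and Fzd10 had log2 fold changes of -0.18, -0.14, -0.19 and -0.03, each with groups that overlapped.

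The secreted antagonists, which keep Wnt proteins or Lrp co-receptors from engaging, showed no call by limma with either prior. Of the 8 genes 6 were tested and Dkk2 and Dkk4 were below the filter. The median log2 fold change was 0.17, with 1 negative and 5 positive values. Sfrp1, a soluble Frizzled-like Wnt binder, was read at 999, 1010.3 and 1144 in the control group and at 942, 993 and 925 with the mimics. The mimic arrays were all slightly lower, but the log2 fold change of -0.14 ± 0.087 (SE) was not called (limma adjusted p = 0.438), and its other 4 probe sets ran from -0.25 to 0.15.

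Sfrp2 gave a log2 fold change of 0.18 with a 95% interval of -0.19 to 0.55, and Sfrp4 gave 0.11 with an interval of -0.37 to 0.58. Dkk1, an antagonist that binds Lrp5 and Lrp6, gave 0.15 with an interval of -0.93 to 1.24. None of the 3 had groups that stood apart. Dkk3, chosen here after its values were seen, was read at 21.6, 24.5 and 18.0 against 32.7, 48.6 and 53.5. Its groups did not overlap, its log2 fold change of 1.05 ± 0.23 (SE) missed the threshold (limma adjusted p = 0.0916, and 0.168 with the robust prior), and its second probe set gave -0.10.

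Within the cytoplasmic steps, Gsk3b was the single gene called with the robust prior and none was called with the constant prior. Of all genes, 9.43% were lower with the robust prior and 1.38% with the constant prior. Of the 9 genes of this class 8 were tested, Dvl3 was below the filter, and the median log2 fold change was -0.10 (5 negative and 3 positive). Gsk3b encodes a kinase that marks beta-catenin for degradation. Its brightest probe set was read at 1732, 1770 and 2061 in the control group and at 1374, 1207 and 1394 with the mimics. Every mimic array was lower, with a log2 fold change of -0.48 ± 0.11 (SE). The limma adjusted p was 0.0988 with the constant prior and 0.00387 with the robust prior, which was kept in each of the 6 fits that left out an array. The other 5 tested Gsk3b probe sets gave -0.47, -0.24, -0.18, -0.03 and 0.07 and none was called, so the gene's call rests on 1 of 6 probe sets. The mean of the 6 gave -0.22, with a limma adjusted p of 0.292.

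Ctnnb1, which encodes beta-catenin, was read at 18338, 20072 and 18295 in the control group and at 19674, 18455 and 19033 with the mimics. The arrays of both groups were interleaved. The log2 fold change was 0.01 ± 0.077 (SE), with a 95% interval of -0.18 to 0.21 and a limma adjusted p of 0.945, and its sign turned with quantile normalization and with centring on all probe sets. Its other probe sets gave -0.11 and -0.05.

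Apc, the scaffold of the destruction complex, was read at 1087, 1097 and 1137 against 1069, 1117 and 965. These overlapped, with a log2 fold change of -0.08 and a 95% interval of -0.29 to 0.14. Axin1, the second scaffold, gave -0.12 with an interval of -0.35 to 0.10. Gsk3a, the paralogue of Gsk3b, gave -0.16 with an interval of -0.52 to 0.20, and Dvl1 and Dvl2 gave 0.14 and -0.19. The Dvl1 groups did not overlap, with the mimics higher, but a control array at 352.5 lay close to a mimic array at 353.5. Dimmer probe sets of Dvl1 and Dvl2 gave the opposite signs, at -0.09 and 0.24, with groups that overlapped. None of these 5 genes was called.

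Axin2, the feedback inhibitor that is also the most widely used transcriptional readout of beta-catenin, was looked at after its values were seen. Its brightest probe set was read at 78.0, 63.5 and 123.0 in the control group and at 179.8, 142.9 and 130.8 with the mimics. No mimic array fell within the control range, though 123.0 and 130.8 were close. Its log2 fold change was 0.82 ± 0.28 (SE) with a limma adjusted p of 0.195, and 0.0608 with the robust prior. It passed in the fit with the robust prior after centring each array on the median of its tested probe sets (0.0411), and in 1 of the 6 fits that left out an array. A second Axin2 probe set, below the filter, was read at 10.5, 36.2 and 24.3 against 5.67, 2.54 and 3.56. It thus ran in the opposite direction at values near the floor, and no direction is given for Axin2.

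The nuclear factors held the second call by limma with the constant prior. Tcf7l2, also known as TCF4, acts with beta-catenin on target genes. It was read at 424.4, 453.1 and 462.0 in the control group and at 306.6, 294.1 and 269.6 with the mimics. The groups were narrow and did not overlap, with means of 447 ± 19.7 and 290.1 ± 18.8 (SD, n = 3). This gave a log2 fold change of -0.62 ± 0.085 (SE), with a 95% interval of -0.84 to -0.41. The limma adjusted p was 0.0478 with the constant prior and 0.00379 with the robust prior.

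The Tcf7l2 call by limma with the constant prior lies just under the threshold and was lost under several settings. The adjusted p was 0.0694 after centring on the median of the tested probe sets, 0.061 after centring on that of all probe sets, 0.0629 after quantile normalization, 0.169 with no filter, and 0.138 to 0.157 without any 1 array. With the robust prior it was kept in each of the 6 fits that left out an array. The other tested Tcf7l2 probe sets gave -0.56 and -0.33 and were not called, and the mean of the 3 gave -0.51 with a limma adjusted p of 0.134.

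Lef1, a factor of the same family that often acts as an activator, had higher values with the mimics. It was read at 150.7, 163.1 and 172.5 in the control group and at 290.8, 220.7 and 316.2 with the mimics. Every mimic array was above every control array, with means of 162 ± 10.9 and 276 ± 49.5 (SD, n = 3). The log2 fold change was 0.75 ± 0.16 (SE), with a limma adjusted p of 0.0866 (constant prior) and 0.0118 (robust prior). The call with the robust prior was lost without the first mimic array (0.0541) and without the third mimic array (0.0517). A dim second Lef1 probe set gave 0.10 with overlapping groups.

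Tcf7l1, known in embryonic stem cells as Tcf3 and as a repressor of pluripotency genes, was not called by its brightest probe set. That probe set was read at 3383, 2836 and 2922 against 2906, 3366 and 2741. Its log2 fold change of -0.02, which became positive after centring on the tested probe sets, had a 95% interval of -0.33 to 0.28. A second Tcf7l1 probe set did not overlap between the groups, at 2182, 2328 and 2275 against 1959, 2022 and 1864. It gave -0.22 ± 0.073 (SE) with a limma adjusted p of 0.196, and 0.0427 with the robust prior, a call that was lost in every fit that left out an array (0.054 to 0.136).

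**Figure D3:**
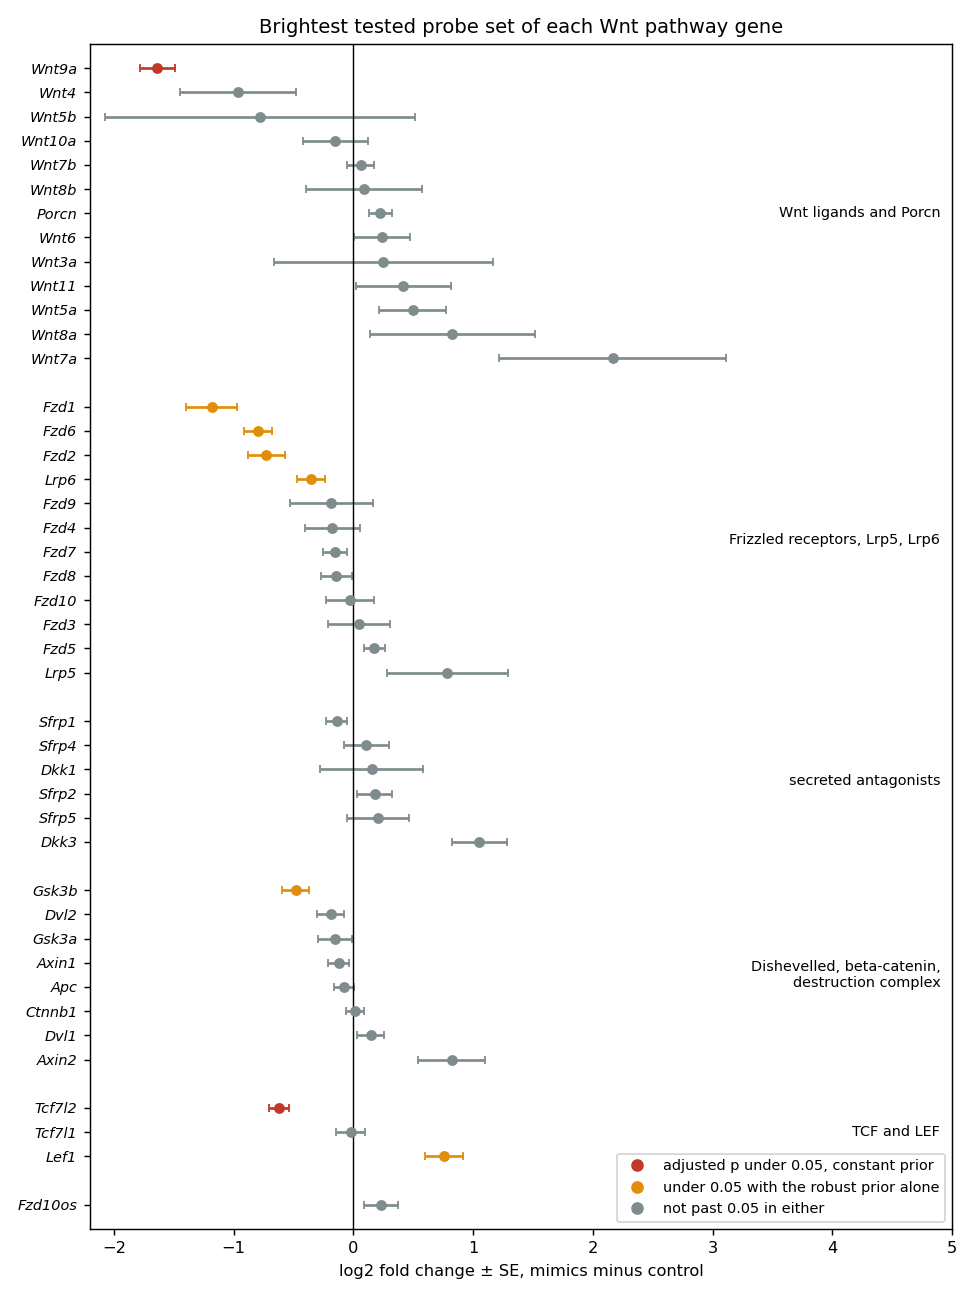
Log2 fold change (mimics minus control) of the brightest tested probe set of 43 Wnt pathway genes with its SE, ordered within each class, red where limma's adjusted p was under 0.05 with the constant prior and orange where it was so with the robust prior alone. Wnt9a (-1.64) and Tcf7l2 (-0.62) are red, Fzd1, Fzd2, Fzd6, Lrp6 and Gsk3b are orange on the negative side, and Lef1 (0.75) is orange on the positive side.

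Genes with several probe sets gave a limited check within the array itself. Of the 43 tested genes, 19 had more than 1 tested probe set, and no gene had probe sets called in opposite directions by limma with either prior. Only Fzd2 had more than 1 probe set called, so the absence of opposite calls says nothing about the other genes. Fzd2 was the gene whose 3 probe sets were all called lower with the robust prior, a call that 2 of them kept in each of the 6 fits without an array. The third Fzd2 probe set kept it in 2 of the 6, without the second control array and without the third mimic array, and its limma adjusted p reached 0.1001 in the others. For Tcf7l2 and Gsk3b the called probe set was the brightest, and for Fzd5 and Tcf7l1 the called one was not. Which transcript forms the probe sets detect was not analysed here.

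**Figure D4:**
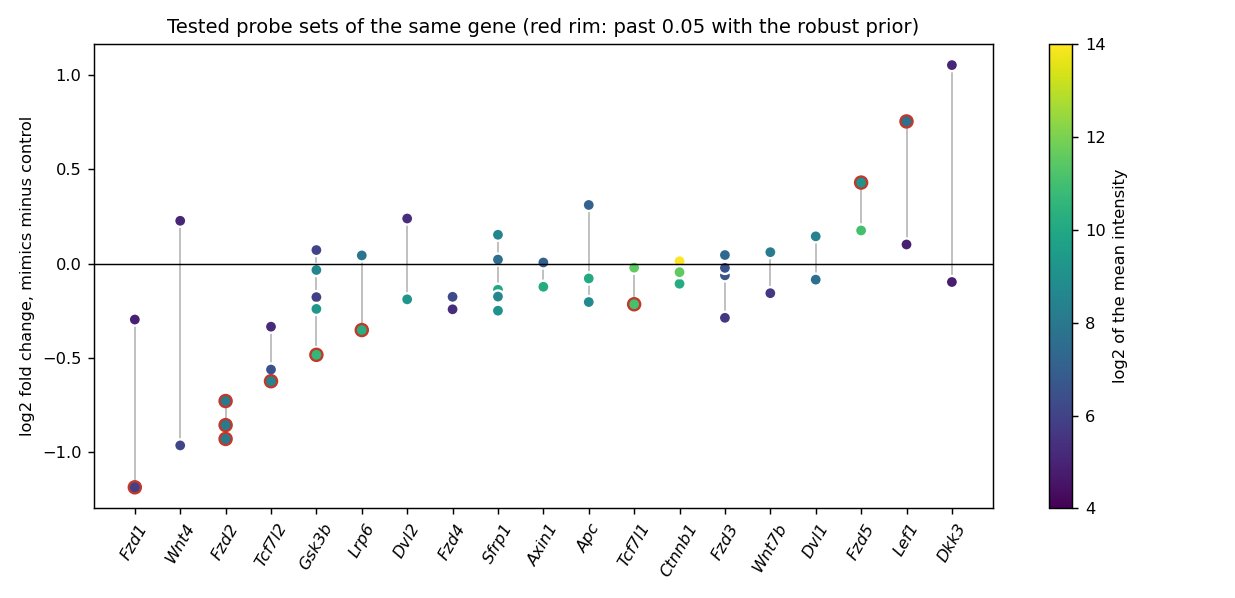
Log2 fold change of each tested probe set of the 19 Wnt pathway genes with more than 1, coloured by log2 of the mean intensity and rimmed in red where limma's adjusted p was under 0.05 with the robust prior. The 3 probe sets of Fzd2 lie together (-0.93 to -0.73), whereas those of Gsk3b run from -0.48 to 0.07.

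Other genes of the pathway were counted from lists of regulators and targets. In all, 83 genes outside the rule were listed and 70 were tested. By their brightest probe sets none was called by limma with the constant prior, where 1.38% of all genes were lower and 0.456% higher. With the robust prior 8 were lower (11.4%) and 5 higher (7.14%), against 9.43% and 6.2% of all genes. The median log2 fold change of the 70 was -0.06.

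Membrane and secreted regulators were tested for 16 of 22 genes, with a list median of -0.15. With the robust prior 4 of them were lower (Lgr4, Znrf3, Ror1 and Tpbg), where 9.43% of all genes were. Znrf3, a ubiquitin ligase that removes Frizzled receptors from the surface, was read at 461.6, 449.7 and 502.9 in the control group and at 269.0, 255.6 and 312.0 with the mimics. The groups did not overlap, and the log2 fold change of -0.76 ± 0.11 (SE) had a limma adjusted p of 0.0504 (constant prior) and 0.00187 (robust prior). A second, dimmer Znrf3 probe set gave 0.00. Tpbg, a membrane inhibitor of the beta-catenin branch, gave -0.52 (limma adjusted p = 0.0632, and 0.00429 with the robust prior), and Ror1, a Wnt5a receptor, gave -0.64 (0.0968 and 0.0439). The dimmer Tpbg probe sets gave -0.33 and 0.26 and were not called with either prior. Lgr4, an R-spondin receptor, gave -0.49 (limma adjusted p = 0.0725, and 0.000809 with the robust prior).

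Cytoplasmic and nuclear regulators were tested for 28 of 31 genes. By their brightest probe sets 2 were lower with the robust prior, where 9.43% of all genes were, and none was higher. Dimmer probe sets were called higher with that prior for Csnk2a1 (0.64, limma adjusted p = 0.000398) and Ctbp2 (0.18, 0.0351). The brightest probe sets of these genes gave -0.01 and 0.10. Tle4, a Groucho co-repressor of TCF factors, was read at 3934, 4339 and 4638 against 3085, 3168 and 3411. No array of one group reached the other, and the log2 fold change of -0.42 ± 0.095 (SE) had a limma adjusted p of 0.0994 (constant prior) and 0.0026 (robust prior). Csnk1g1, a casein kinase that can phosphorylate Lrp6, gave -0.22 (0.174 and 0.042). The list median was -0.04, and 0.01 after centring on the tested probe sets.

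In the planar polarity branch 12 of 13 genes were tested, with a median of -0.19. With the robust prior 1 of them was called lower, where 9.43% of all genes were. That gene was Prickle1, a cytoplasmic core component of the branch. It was read at 464.0, 554.0 and 507.3 in the control group and at 376.6, 364.4 and 338.7 with the mimics. Its groups did not overlap, and the log2 fold change of -0.50 ± 0.098 (SE) had a limma adjusted p of 0.0786 (constant prior) and 0.0118 (robust prior). Nlk, a kinase that acts on TCF factors, gave -0.07 by its brightest probe set. A dimmer Nlk probe set did not overlap between the groups and was higher with the mimics. It gave 0.25 and was not called (limma adjusted p = 0.213, and 0.0639 with the robust prior), and another gave 0.08. Scrib, a polarity scaffold, gave 0.09.

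Genes reported elsewhere as beta-catenin targets did not share a direction. Of 24 listed, which include the members Axin2 and Lef1, 19 were tested, 9 had a negative and 10 a positive log2 fold change, and the median was 0.05. By limma with the constant prior none was called from its brightest probe set. With the robust prior 2 were lower (Znrf3 and Bambi) and 6 were higher (Myc, Mycn, Ccnd1, Lef1, Nr5a2 and Esrrb), 10.5% and 31.6% of the 19, against 9.43% and 6.2% of all genes. Esrrb is also on the list of embryonic stem cell markers, and the list was put together with results of these arrays known, so its share is not independent evidence of a direction.

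Nr5a2, a nuclear receptor that supports Pou5f1 expression, was read at 2490, 2174 and 2339 in the control group and at 3429, 3431 and 3403 with the mimics. The mimic arrays were nearly level and all above the control arrays. The log2 fold change was 0.55 ± 0.080 (SE), with a limma adjusted p of 0.0529 (constant prior) and 0.000238 (robust prior). Another Nr5a2 probe set rose in limma with the constant prior, with a log2 fold change of 0.54 and an adjusted p of 0.0468. Myc, a driver of proliferation, was read at 384.5, 452.0 and 349.0 against 529.2, 623.7 and 569.2, with groups that did not overlap. Its log2 fold change was 0.54 ± 0.13 (SE), with a limma adjusted p of 0.106 (constant prior) and 0.0118 (robust prior).

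Across the settings tried, the direction of the 8 Wnt genes called with either prior did not turn, but most settings could not turn it. The priors, filters and replicate block do not alter a fold change. Groups that do not overlap also keep their order when an array is left out or an offset is added. Only centring, quantile normalization and averaging of probe sets could have turned a sign. The 8 were also chosen by their calls in these data. Wnt9a, Fzd2, Fzd6, Gsk3b and Tcf7l2 were called by their brightest probe sets with the robust prior in each of the 6 fits that left out an array, and Lef1 in 4, Fzd1 in 1 and Lrp6 in 1. Of these, Wnt9a was the one also called by limma with the constant prior after each of the between-array normalizations.

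**Figure D5:**
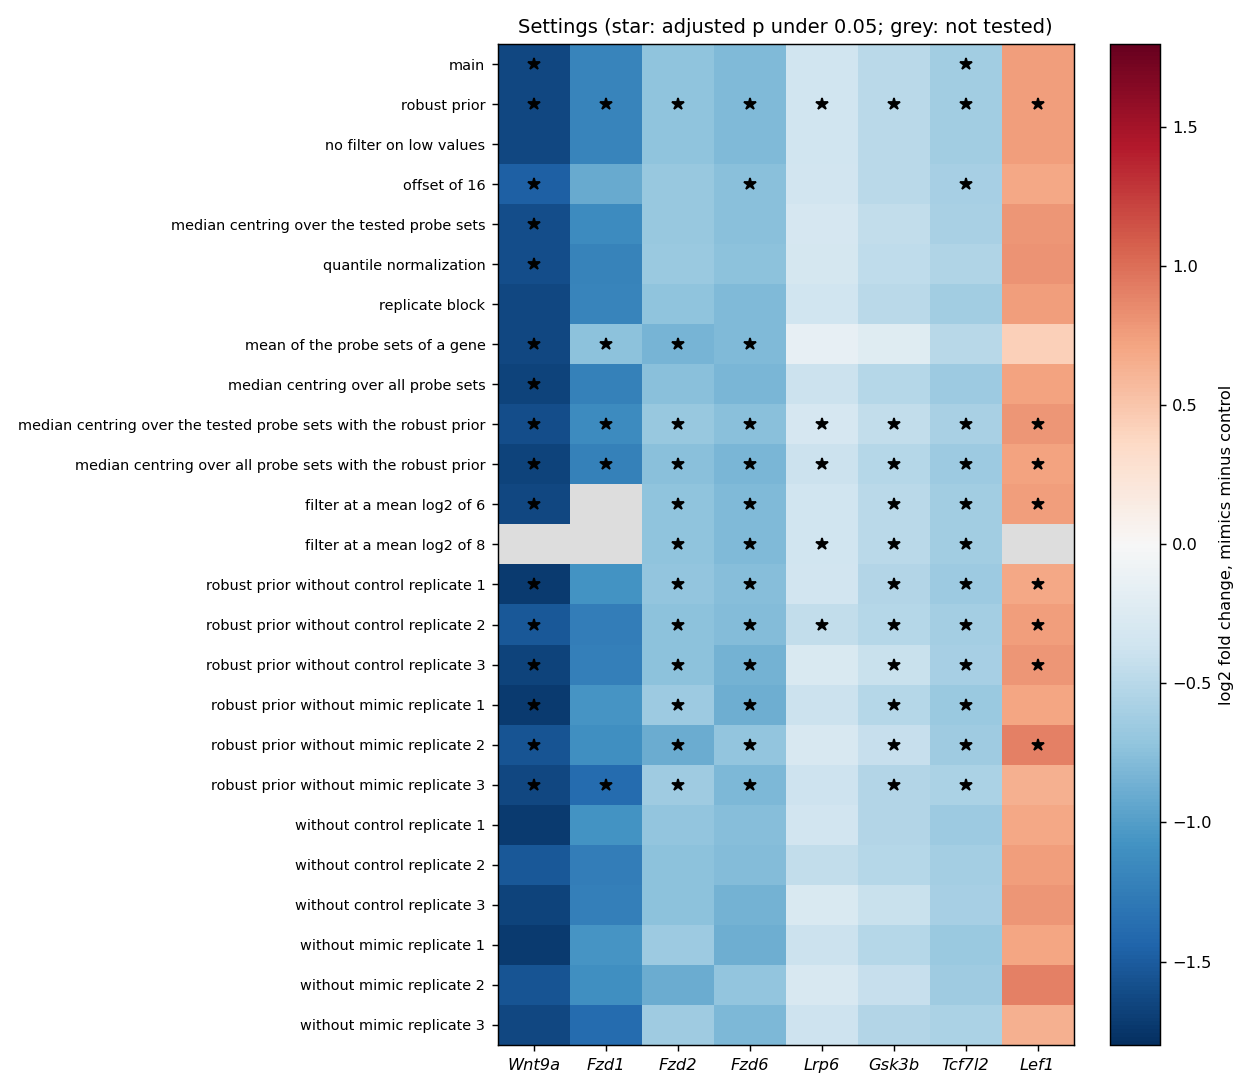
Log2 fold change (colour, mimics minus control) of the 8 Wnt pathway genes called with either prior under each setting, with a star where limma's adjusted p was under 0.05 and grey where the gene was below that setting's filter. The colours keep their sign in every setting, although most settings could not turn it, whereas the stars come and go. With the robust prior Wnt9a, Fzd2, Fzd6, Gsk3b and Tcf7l2 keep theirs in all 6 fits without an array, and with the constant prior none does.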

How the data were processed

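Total RNA was labelled as biotinylated cRNA and read on 6 Affymetrix arrays, 3 per group, per the labels, which give a single analysis date. The authors deposited 1 linear intensity per probe set and array. The submitters' processing notes name GCRMA, which usually gives log2 values, so the tool behind the deposited intensities remains unknown here, and detection calls were not used. The intensities were log2-transformed with no offset, where log2 values had been assumed, and not normalized again. Genes were named through the platform annotation: 34945 probe sets had 1 symbol, 932 had several and 9211 were not listed. The brightest probe set stood for a gene.

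Control probe sets (64) and 15870 others whose log2 intensity averaged less than 4 were left out, and 35 of the 110 Wnt probe sets were among the latter. The other 29167 went into limma 3.58.1, run in R 4.3.3 (lmFit, eBayes with a constant prior variance, 2-sided, no covariates), with Benjamini-Hochberg adjustment over all of them and a threshold of 0.05. Intervals are 95% intervals of limma. The small number of arrays limits the precision. The alternatives were a robust prior that follows the signal level, other filters (none, 6, 8), an offset of 16, median centring and quantile normalization. Further ones were a replicate block, averaging the tested probe sets of a gene, and leaving out each array. Centring over all probe sets and both centrings with the robust prior were added after seeing the data. The fits were tested on simulated data, with 50 probe sets changed at each fold. For each probe set the measured mean and within-group SD were taken as the true ones. The changed probe sets were drawn from all tested ones, dim ones included, so the rates do not describe the Wnt genes in particular. At 1.5-fold the constant prior recovered 14.0% of them and the robust prior 26.0%. Each recovered 50.0% at 2-fold, and at 8-fold they recovered 82.0% and 68.0%. A change of such a size can thus be present without being called.

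The genes, the lists and the rule for named genes were chosen with earlier results of these data known. That rule took, per class, genes past the threshold, up to 4 past it with the robust prior alone and up to 3 of the highest level, and for each further list up to 3 past it with the robust prior or 2 of the highest level. Other genes named were chosen after their values were seen.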

Additional observations from a re-analysis of the deposited data

How the results depend on the processing

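Counts of calls varied widely. All tested probe sets gave 276 lower and 100 higher in limma with the constant prior, and 1914 and 1379 with the robust prior. The Wnt probe sets gave 10 lower and 2 higher with the robust prior, the Wnt genes 7 and 1, and the further Wnt genes 8 and 5. The settings that follow used the constant prior unless the robust prior is named. With no filter the counts were 0 for all these groups, and the robust prior was not run without the filter. A filter of 6 gave 1522 lower and 851 higher over all probe sets, 6 and 1 for Wnt probe sets, 5 and 1 for Wnt genes, and 7 and 3 for further genes. A filter of 8 gave 1800 and 1200, 6 and 1, 5 and 0, and 7 and 6. An offset of 16 gave 442 and 186 over all probe sets and 1 and 1 for further genes. Centring gave 103 and 50 over the tested and 170 and 37 over all probe sets, each with 1 Wnt probe set and 1 Wnt gene lower, as did quantile normalization. With the robust prior, centring on the tested probe sets gave 1423 and 1762 in all, 9 and 3 for Wnt probe sets, 7 and 2 for Wnt genes, and 5 and 7 for further genes. Centring on all probe sets then gave 1979 and 805, 9 and 1, 7 and 1, and 8 and 3. Averaging the tested probe sets of a gene gave 4 Wnt genes lower. For that setting the calls over all genes were not counted, so whether this share stands out is not known.

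The replicate block, with the number in the sample titles, gave 0 calls throughout, and Wnt9a and Tcf7l2 had an adjusted p of 0.208. Same-numbered samples did not deviate together (correlations of -0.0061, 0.0123 and 0.0242), and not every sample correlated best with its own number. Leaving out an array gave 0 to 1600 lower and 0 to 1244 higher calls over both priors (with the robust prior at least 1186 and 730), 0 to 8 and 0 to 3 for Wnt probe sets, 0 to 6 and 0 to 2 for Wnt genes, and 0 to 7 and 0 to 6 for further genes. With the robust prior the Wnt probe sets kept at least 6 lower calls. These fits have fewer samples.

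The log2 fold changes that turned belong to genes not called in limma by their brightest probe set. The mean of the tested probe sets turned Apc (0.0094), Ctnnb1 (-0.047), Fzd3 (-0.082), Wnt7b (-0.048) and Nlk (0.090). Ctnnb1 also turned with quantile normalization (-0.065) and centring on all probe sets (-0.017 with either prior), and Tcf7l1 with centring on the tested probe sets (0.025 with either prior). Without an array Ctnnb1 ran from -0.011 to 0.056, Fzd3 from -0.19 to 0.30, Sfrp4 from -0.075 to 0.21, Tcf7l1 from -0.11 to 0.056 and Wnt7b from -0.034 to 0.14. Apart from the settings described, the cause of these changes was not tested. Without detection calls, dim probe sets may hold background alone.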
